A study of Mus musculus with 6 samples.

Results

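The genes described here encode guidance cues and their receptors: the secreted ligands Slit2 and Slit3, the Slit receptors Robo1 and Robo2, the semaphorins Sema3a and Sema6d, the semaphorin receptors Plxna2 and Plxnd1, and the netrin receptor Unc5b. They were taken by name or older synonym from the authors' comparison table, which gave 9 of the 10 genes asked for. Sema3c, a secreted semaphorin, had no probe set under any of its names in that table and was not analysed here. The 9 genes stood among 12264 named genes and were read by 18 of the 45037 probe sets that are not Affymetrix controls.

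The tested fraction consisted of cells of the mouse embryonic stem cell line CGR8, grown as embryoid bodies without any labelled treatment and sorted by flow cytometry on day 5 as positive for both CXCR4 and FLK-1 (double positive). It was set against day 5 cells of the same line that were negative for both proteins (double negative). CXCR4 is a chemokine receptor, and FLK-1, the product of Kdr, is a receptor of vascular endothelial growth factor. Each fraction had 3 samples from separate collections, and 1 Affymetrix array per sample. All come from this 1 cell line, and the RNA on the arrays is described as pools without saying what was pooled, so the p-values measure the spread between these pools.

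Slit proteins are secreted and bind Robo receptors, which repel growing axons and also act on migrating cells of the vessel wall and the heart. Semaphorins bind plexins, class 3 members mostly with a neuropilin as coreceptor, and plexins then act on small GTPases that set cell adhesion and the cytoskeleton. In the mouse embryo several of these genes are needed for the heart and the vessels: Plxnd1 in endothelial cells, Plxna2 in the neural crest of the outflow tract, and Robo1 and Robo2 in the forming heart.

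Values are linear ratios, in which the authors had divided each probe set by its median over the 3 double-negative arrays. They compare arrays and give no level of a transcript, so genes cannot be ranked by abundance. Replicate 1 stood apart in both fractions. The median log2 ratio over the comparison table was -0.41 on double-positive replicate 1 and between 0.036 and 0.11 on the other double-positive arrays, against -0.33 on double-negative replicate 1 and 0 on the other double-negative arrays. The log2 ratio of 5' over 3' probe sets of the Gapdh and actin controls, taken from the same median-scaled values, was lowest on the same arrays, at -0.51 on double-positive replicate 1 and -2.03 on double-negative replicate 1, against 0.018 or above on the other 4 arrays. Differences of the gene's leading probe set are therefore also given without both replicate 1 arrays. Cxcr4 and Kdr, the genes of the sorted proteins, were higher on all 3 double-positive arrays than on any double-negative one.

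The 250 bases before the RefSeq start (build GRCm38.p6) are printed for Slit2, Slit3 and Sema3a, the ligand genes whose leading probe set was lower in the double-positive array of every replicate number. The sequences run 5' to 3' on the plus strand, at chr5:47982905-47983154 for Slit2, chr11:35121206-35121455 for Slit3 and chr5:13396534-13396783 for Sema3a. Capitals mark the GC box GGGCGG or its reverse complement CCGCCC, the core of a motif bound by SP factors, and overlapping matches were counted.
Slit2: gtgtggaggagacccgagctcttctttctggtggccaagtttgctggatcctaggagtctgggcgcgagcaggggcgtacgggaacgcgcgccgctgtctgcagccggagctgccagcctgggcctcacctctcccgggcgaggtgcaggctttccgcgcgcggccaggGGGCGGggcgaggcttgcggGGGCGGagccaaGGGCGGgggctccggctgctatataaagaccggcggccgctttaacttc
Slit3: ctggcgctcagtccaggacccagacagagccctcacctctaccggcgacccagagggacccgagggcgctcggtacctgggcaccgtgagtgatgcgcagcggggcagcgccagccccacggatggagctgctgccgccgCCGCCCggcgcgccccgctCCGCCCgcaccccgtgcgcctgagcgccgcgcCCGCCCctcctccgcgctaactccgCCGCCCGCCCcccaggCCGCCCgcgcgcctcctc
Sema3a: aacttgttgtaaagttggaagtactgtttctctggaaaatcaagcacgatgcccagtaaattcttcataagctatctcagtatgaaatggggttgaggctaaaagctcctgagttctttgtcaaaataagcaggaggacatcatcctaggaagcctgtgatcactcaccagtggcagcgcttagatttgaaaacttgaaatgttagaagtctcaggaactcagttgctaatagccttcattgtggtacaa
The Slit3 window held 6 matches, the Slit2 window 3 and the Sema3a window 0. These 3 genes were chosen because their leading probe sets were lower, so their common side is no result, and the other Slit2 probe sets stood on the opposite side. At least 1 match was found at 32.7% of all 32851 RefSeq starts in windows of the same length, and at 7 of the 13 starts of the 10 genes. CpG dinucleotides numbered 35 before Slit3, 25 before Slit2 and 2 before Sema3a, and the median over all starts was 6. The letters TATAAA, the core of a TATA box, occurred before Slit2 alone among these genes, and before 12.4% of all starts (either strand). These matches are a description of the letters and show no binding.

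**Figure D1:**
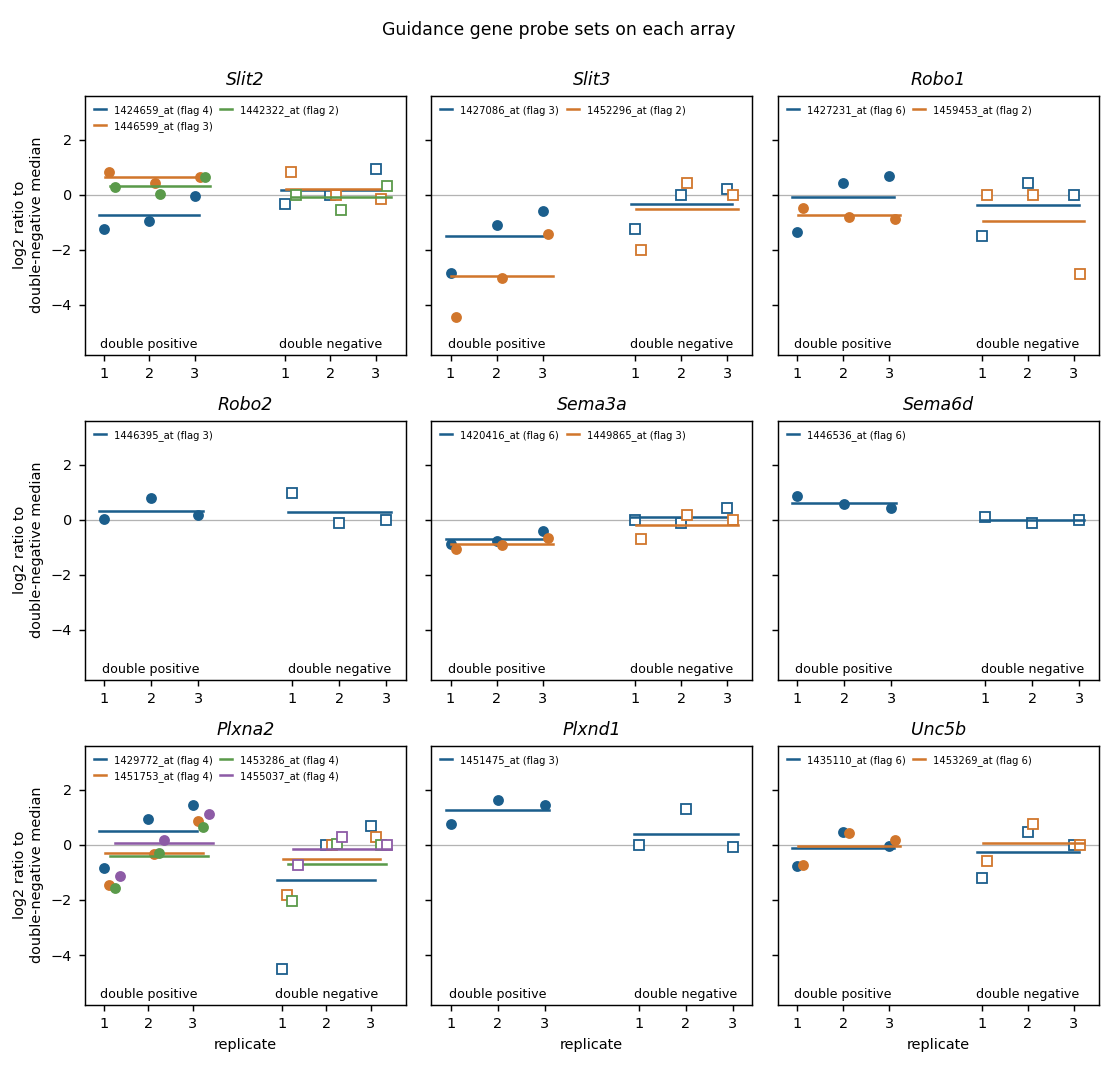
Log2 ratio to the double-negative median (vertical axis) of all 18 probe sets on each array, by gene, with filled circles for the 3 double-positive and open squares for the 3 double-negative replicates. Colours are probe sets with their flag score and horizontal lines are group means; the lowest values belong to Plxna2 on double-negative replicate 1 and to Slit3 on double-positive replicate 1.

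Differences are double positive minus double negative on the log2 scale, tested with limma's moderated test over all probe sets, and over 1 probe set per gene for the values by gene. The probe set that stands for a gene has the highest flag score, a number from 2 to 6 in the authors' table that was read as the number of arrays with detection. No guidance gene passed. With limma and Benjamini-Hochberg adjustment 0 of 9 genes and 0 of 18 probe sets had an adjusted p under 0.05, beside 0.0% of all genes and 0.0% of all probe sets, and the smallest adjusted p was 0.898 among these genes and 0.17 among all genes. At an unadjusted limma p under 0.05 stood 1 of the 9 genes, Sema3a, beside 5.14% of all genes. It was 1 of the 18 probe sets, belonging to Slit3, beside 5.5% of all probe sets. The groups did not overlap for 2 of the 9 genes, Sema3a and Sema6d, where 10.4% of all genes did so: Sema3a was lower, beside 5.31% of all genes, and Sema6d higher, beside 5.14%. Of the 18 probe sets 2 had no overlap, where 10.5% of all probe sets did. A difference of at least 1 in size was found for 2 of the 9 genes, Slit3 and Plxna2, beside 6.25% of all genes, and for 3 of the 18 probe sets, beside 15.3%. The median difference was 0.13 over the 9 genes and 0.045 over all genes. The authors' deposited table gives a p under 0.05 to the same leading probe sets of Sema3a (fold 0.572, p = 0.0211) and Sema6d (fold 1.537, p = 0.0253), 2 of the 18, where 3.33% of its probe sets have one.

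The replicate numbers are shared between the fractions, and arrays of the same number deviated together from their group means. With the number as a block, 6 of the 9 genes had an unadjusted limma p under 0.05, beside 13.9% of all genes: Slit2, Slit3, Sema3a, Sema6d, Plxna2 and Plxnd1. Over all genes 0 passed the adjustment in that fit, and the adjusted p of the 9 genes ran from 0.164 to 0.962. Of the 9 genes, 7 kept 1 direction in all 3 pairs, where 41.1% of all genes did. By leading probe set, Robo1, Sema6d, Plxna2 and Plxnd1 were higher in every pair, beside 23.2% of all genes, and Slit2, Slit3 and Sema3a lower, beside 17.9%. The second pair of Robo1 differed by only 0.0064. Of the 18 probe sets 11 kept 1 direction, beside 33.5% of all probe sets, 6 of them higher, beside 19.0%, and 5 lower, beside 14.5%. With the block 4 probe sets had an unadjusted limma p under 0.05, beside 7.91%: 1 of Slit2, both of Slit3 and 1 of Sema3a. These genes were chosen with results of these data known, so the excess over the background has no test. Without both replicate 1 arrays the groups did not overlap for 8 of the 9 genes, but for 44.4% of all genes as well, and 3 genes had an unadjusted limma p under 0.05, beside 11.3%. For probe sets the same counts were 11 of 18, beside 38.5% of all probe sets, and 3 of 18, beside 7.0%. With weights that count the more variable arrays less, 5 of the 9 genes had an unadjusted limma p under 0.05, beside 19.6% of all genes.

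**Figure D2:**
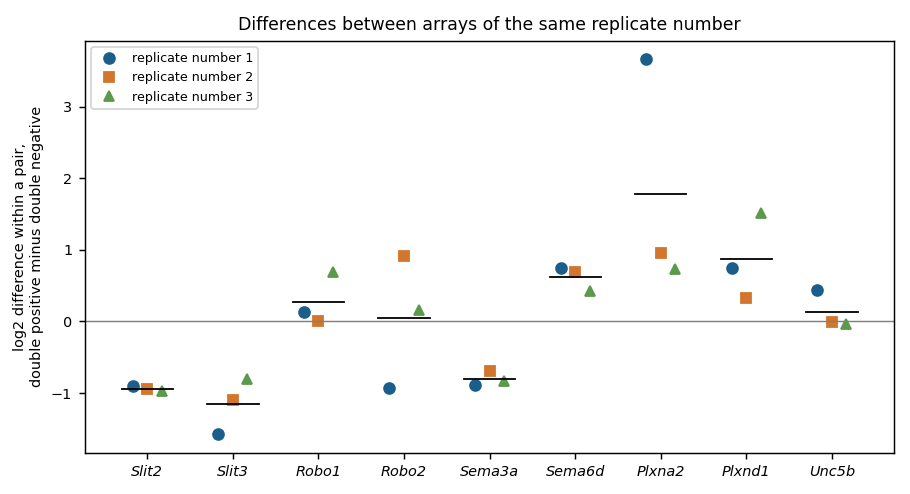
Log2 difference between the double-positive and the double-negative array of the same replicate number (vertical axis) for the probe set that stands for each gene, with 1 symbol per replicate number and a black line at the mean. The 3 pairs of Slit2 lie together near -0.9, those of Sema3a between -0.89 and -0.69, and those of Plxna2 reach 3.66 in replicate number 1.

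The Slit ligand genes differed in how far their probe sets agreed. Slit3 (1427086_at, flag score 3) gave 0.141, 0.468 and 0.667 on the double-positive arrays 1 to 3, against 0.419, 1 and 1.165 on the double-negative arrays. Double-positive replicate 1 was the lowest of the 6 arrays, and double-negative replicate 1 lay below double-positive replicates 2 and 3, so the groups overlapped although each double-positive array was below its double-negative partner. The difference was -1.16 (SE 0.634, 95% confidence interval -2.60 to 0.29, n = 3 per group). It was -0.49 without double-positive replicate 1 alone and -0.95 without both replicate 1 arrays. The limma adjusted p was 0.9998 in the fit without a block and 0.164 with it.

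The other probe set of Slit3, 1452296_at, had ratios of 0.0465, 0.122 and 0.377 in double-positive cells, against 0.251, 1.333 and 1 in double-negative cells. It had the largest difference of the 18 in size, -2.43 (SE 0.919, interval -4.59 to -0.26), with a limma adjusted p of 0.883, and it was also -2.43 without both replicate 1 arrays. The flag score of this probe set was 2, so 4 of the 6 arrays had no detection under the reading above, and the files do not say which. Both Slit3 probe sets were lower in all 3 pairs.

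Slit2 (1424659_at, flag score 4) gave 0.42, 0.52 and 0.978 on the double-positive arrays, against 0.786, 1 and 1.908 on the double-negative arrays. Double-positive replicate 3 lay above double-negative replicate 1, so the groups overlapped, while the 3 pairs were close to each other at -0.90, -0.94 and -0.96. The mean difference was -0.94 (SE 0.466, interval -2.0 to 0.13; limma adjusted p = 0.9998, and 0.164 with the replicate block). It was -0.95 without both replicate 1 arrays and -0.57 without double-negative replicate 3. Its other probe sets pointed the other way: 1446599_at (flag score 3) had a difference of 0.41 (SE 0.407) and 1442322_at (flag score 2) one of 0.39 (SE 0.401), both higher in all 3 pairs. The mean over the 3 probe sets was -0.045 (SE 0.312), so the sign of Slit2 rests on the probe set with the highest flag score.

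The Robo receptor genes differed by less than the spread between replicates. Robo1 had ratios of 0.391, 1.366 and 1.619 in double-positive cells, against 0.356, 1.36 and 1 in double-negative cells (1427231_at, flag score 6). Replicate 1 was low in both fractions and the pairs differed by 0.14, 0.0064 and 0.70. The mean difference was 0.28 (SE 0.666, interval -1.24 to 1.80, limma adjusted p = 0.9998), so the interval holds changes of more than a doubling either way. It was 0.35 without both replicate 1 arrays, -0.29 without double-negative replicate 1 and -0.10 without double-positive replicate 3. Its other probe set, 1459453_at with a flag score of 2, was at 0.22 (SE 0.792) through a single low double-negative array, replicate 3 at 0.138. In the pairs of replicates 1 and 2 that probe set was lower, at -0.50 and -0.82. Robo2, which lies next to Robo1 in RefSeq's order of protein-coding genes, stood at 1.03, 1.73 and 1.122 in double-positive cells, against 1.96, 0.92 and 1 in double-negative cells (flag score 3). Its difference was 0.050 (SE 0.408, interval -0.88 to 0.98), and 0.54 without both replicate 1 arrays, where the highest of the 6 arrays, double-negative replicate 1, is left out. It was -0.18 without double-positive replicate 2, and -0.15 and -0.092 without double-negative replicates 2 and 3.

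Among the semaphorins, Sema3a and Sema6d were the genes whose groups did not overlap, in opposite directions. Sema3a, which repels axons and endothelial cells through neuropilin 1 and A-type plexins, had ratios of 0.539, 0.582 and 0.753 in double-positive cells, against 1, 0.936 and 1.345 in double-negative cells (1420416_at, flag score 6). All 3 double-positive arrays lay below all 3 double-negative ones, and replicate 1 did not stand apart in either fraction. The difference was -0.80 (SE 0.327, interval -1.55 to -0.06), a 1.75-fold lower ratio, with a limma adjusted p of 0.898 (0.196 with the block). It was -0.76 without both replicate 1 arrays. That interval is from the fit by gene, and in the fit over all probe sets it was -1.67 to 0.06 for 1420416_at and held 0. The other Sema3a probe set, 1449865_at (flag score 3), gave 0.477, 0.529 and 0.627 in double-positive cells against 0.617, 1.123 and 1 in double-negative cells. That is a difference of -0.71 (SE 0.394), with a slight overlap at double-negative replicate 1, so both probe sets of the gene gave the same direction and nearly the same size.

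Sema6d, a membrane-bound semaphorin that acts through A-type plexins in the heart of the chick embryo, had 1 probe set with the full flag score of 6. Its ratios were 1.832, 1.5 and 1.342 in double-positive cells, against 1.09, 0.931 and 1 in double-negative cells. All double-positive arrays lay above all double-negative ones. The difference was 0.62 (SE 0.309, interval -0.08 to 1.33), a 1.54-fold higher ratio, with an adjusted p of 0.9998 (limma; 0.285 with the block), and 0.56 without both replicate 1 arrays. Sema3a and Sema6d had the smallest standard errors of the 9 genes.

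**Figure D3:**
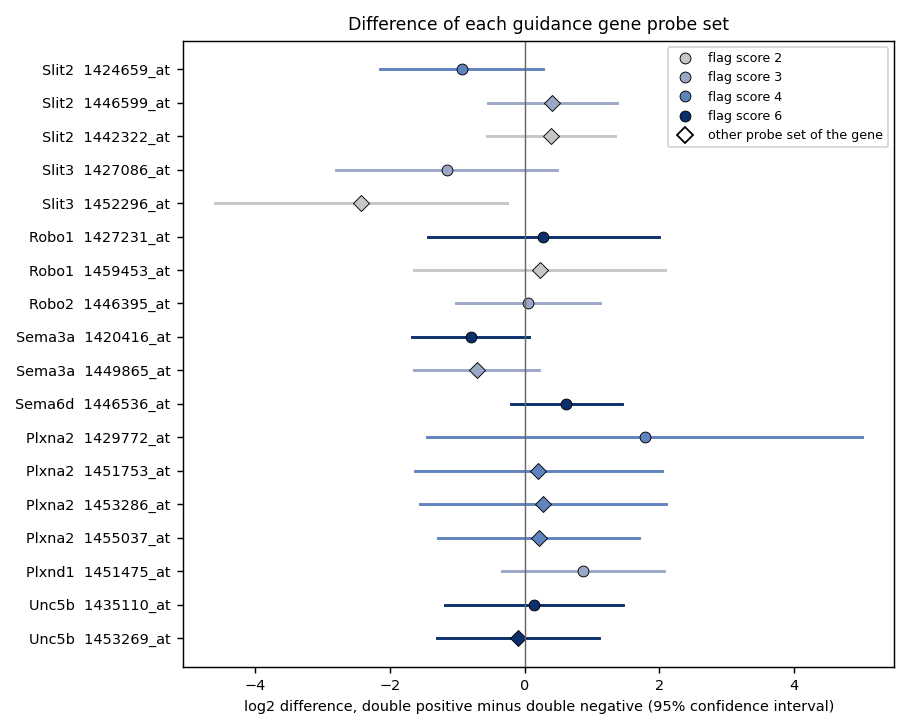
Log2 difference of each of the 18 probe sets (horizontal axis) with its 95% confidence interval from the limma fit over all probe sets; circles stand for the gene, diamonds are its other probe sets, and darker colour is a higher flag score. The interval of 1452296_at of Slit3 alone leaves out 0, Slit2 has probe sets on both sides of 0, and 1429772_at of Plxna2 has the widest interval, -1.45 to 5.01.

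The plexin genes had positive differences whose size depended on the array or the probe set. Plxna2, a receptor of class 3 and class 6 semaphorins, had ratios of 0.553, 1.934 and 2.717 in double-positive cells, against 0.0438, 1 and 1.628 in double-negative cells (1429772_at, flag score 4). The value of 0.0438 on double-negative replicate 1 was the lowest of all 18 probe sets on any array. The difference of 1.78 (SE 1.25, interval -1.08 to 4.65, limma adjusted p = 0.9998) became 0.16 without that array and 0.85 without both replicate 1 arrays, and it reached 2.77 when double-negative replicate 3 was left out. The other 3 Plxna2 probe sets, also with a flag score of 4, had differences of 0.20, 0.21 and 0.27 with standard errors between 0.632 and 0.78, and none of them kept 1 direction in all pairs. All 4 were on the higher side, and 3 of the 4 lay near 0.

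Plxnd1, a plexin of endothelial cells that binds Sema3e directly, stood at 1.685, 3.09 and 2.729 in double-positive cells, against 1, 2.459 and 0.953 in double-negative cells (1451475_at, flag score 3). Double-negative replicate 2 lay within the range of the double-positive arrays, and the other double-negative arrays lay below it. The difference was 0.87 (SE 0.46, interval -0.18 to 1.92; limma adjusted p = 0.9998, and 0.297 with the block), 0.92 without both replicate 1 arrays and 1.31 without double-negative replicate 2. That array also had the highest double-negative ratios of Cxcr4 and Kdr, 1.954 and 3.929, where the other double-negative arrays had at most 1 for both genes. Whether this bears on Plxnd1 was not tested.

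Unc5b, a netrin receptor present on vessel tips and on neurons, differed by less than the spread between replicates on both of its probe sets. The one listed under an older synonym, 1435110_at, had ratios of 0.595, 1.38 and 0.978 in double-positive cells, against 0.437, 1.39 and 1 in double-negative cells. The difference was 0.13 (SE 0.51, interval -1.03 to 1.3, limma adjusted p = 0.9998). It was -0.021 without both replicate 1 arrays, -0.34 without double-negative replicate 1 and -0.15 without double-positive replicate 2. The other, 1453269_at, was at -0.10 (SE 0.512). Both had the full flag score of 6, and the order of replicates was the same in both fractions, lowest in replicate 1 and highest in replicate 2.

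The rest of the guidance system was read from 5 lists, in which 60 of 84 genes had a named probe set. Again 0 passed the adjusted limma test, 29 had a higher and 31 a lower mean in double-positive cells, and the median difference was -0.015. At an unadjusted p under 0.05 stood 0 genes on the higher side, beside 1.71% of all genes, and 3 on the lower side, beside 3.42% of all genes. The groups did not overlap for 4 of the 60, against 10.4% of all genes. Of these, Sema4g and Plxna4 were higher, beside 5.14% of all genes, and Plxnc1 and Rgmb lower, beside 5.31%. With the replicate block 13 of the 60 had an unadjusted limma p under 0.05, beside 13.9% of all genes, with 0 past the adjustment. In all 3 pairs 11 of the 60 were higher, beside 23.2% of all genes, and 17 were lower, beside 17.9%.

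Of 10 other semaphorins 6 had a lower mean. The only 1 whose groups did not overlap, Sema4g, was higher, at 0.31 (SE 0.301, flag score 2). The largest differences belonged to Sema4f at -1.86 (SE 0.967, flag score 2) and to Sema3e, the ligand of Plxnd1, at -0.70 (SE 0.797, flag score 6). Without both replicate 1 arrays they were at -0.88 and -0.66, and Sema4f stood at 0.0507 on double-positive replicate 1. Sema3e had ratios of 0.128, 0.493 and 0.823 in double-positive cells, against 0.222, 1.006 and 1 in double-negative cells, lower in all 3 pairs while the groups overlapped, and its 4 probe sets pointed the same way. Among 8 other plexins and neuropilins, Plxnc1, the receptor of Sema7a, had ratios of 0.442, 0.697 and 0.492 in double-positive cells, against 0.922, 1.317 and 1 in double-negative cells. Its groups did not overlap and the difference was -1.0 (SE 0.339; limma adjusted p = 0.763, and 0.147 with the block), but 1 of its 3 probe sets pointed the other way. The coreceptor genes Nrp1 and Nrp2 were at 0.59 (SE 0.529) and 0.50 (SE 0.587), and at 1.05 and 0.30 without both replicate 1 arrays.

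In the netrin system 7 of 16 listed genes were measured. Rgmb, a repulsive guidance molecule that also binds BMPs, had ratios of 0.555, 0.702 and 0.458 in double-positive cells, against 2.236, 1 and 0.787 in double-negative cells. The groups did not overlap, and the difference was -1.10 (SE 0.445, limma adjusted p = 0.891), or -0.65 without both replicate 1 arrays; 1 of its 4 probe sets pointed the other way. Ntng1, which encodes the membrane-anchored netrin G1 and is named after its value was seen, was at -1.25 (SE 0.527, limma adjusted p = 0.933) with groups that overlapped. Of the 8 Slit and Robo partners the largest differences were those of Srgap2, a GTPase-activating protein that binds Robo, at 0.60 (SE 0.508), and of the heparan sulphate proteoglycan gene Gpc1 at 0.47 (SE 0.532). Of the 27 intracellular effectors, Mical1 and Mical2, oxidoreductases that take apart actin filaments downstream of plexins, were at 1.35 (SE 0.804) and 1.07 (SE 0.946). The difference of Mical1 rested in part on double-negative replicate 1, at 0.2, and was 0.78 without both replicate 1 arrays. That of Mical2 (flag score 2) came from the replicate 1 pair, where double-negative replicate 1 stood at 0.0775. Its pairs differed by 3.23, -0.24 and 0.21, and it was at -0.016 without both replicate 1 arrays.

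**Figure D4:**
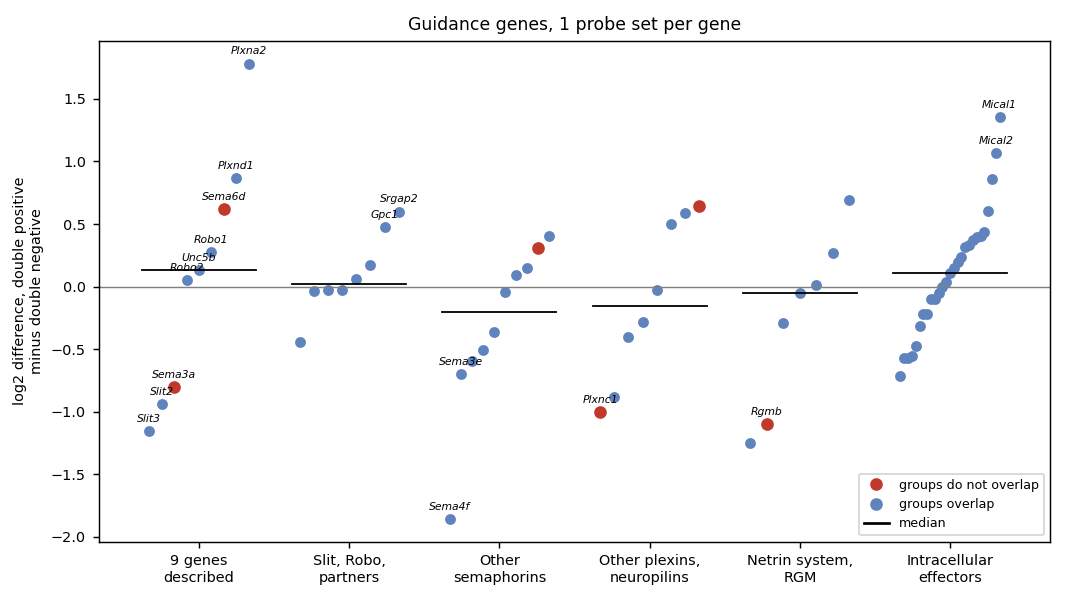
Log2 difference by gene (vertical axis), double positive minus double negative, for the 9 genes described here (left) and for the 60 other guidance genes in 5 lists; red points are genes whose groups do not overlap and black lines are list medians. All 6 medians lie between -0.20 and 0.13, and the points spread to both sides of 0 in each list.

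The genes nearest to Plxna2 and to Slit3 over the 6 arrays were found by the root mean square difference of log2 ratios. Only leading probe sets were used, 1429772_at for Plxna2 and 1427086_at for Slit3. The other Plxna2 probe sets, with differences of 0.20 to 0.27, did not share the size of 1429772_at, so its neighbours describe that probe set. For Plxna2, the gene with the highest difference, they were Mixl1 at 0.449, Slc27a3 at 0.452, Dock4 at 0.492 and Pdgfra at 0.555, where the median over all 12263 other genes was 1.87. For Slit3, the gene with the lowest difference, they were Il17rd at 0.127, Nbea at 0.142, Ror2 at 0.147 and Spred2 at 0.162, where the median was 1.255. Distances over so few arrays, 2 of which stand apart, describe these arrays only.

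Some markers of cell types that the fractions could hold had groups that did not overlap, mainly in the pluripotency and endothelial lists. In bulk RNA, fewer cells of a type and less RNA per cell cannot be told apart. Of 8 pluripotency genes 6 had all double-positive arrays below all double-negative ones, beside 5.31% of all genes. Array means of log2 ratios over the 8 genes lay between -1.57 and -1.19 in double-positive cells and between -0.18 and 0.04 in double-negative cells. Of 4 measured endothelial genes 3 (Tek, Etv2 and Fli1) had all double-positive arrays above, beside 5.14% of all genes. Array means over the 4 genes lay between 1.01 and 1.5 in double-positive cells and between -0.40 and 0.54 in double-negative cells. The remaining gene, Cdh5, the cadherin gene of formed endothelium, was at -0.079 (SE 0.301). Of 9 neural ectoderm genes 3 were measured (Nes, Sox3 and Zic1). Their groups overlapped, with array means between -1.0 and -0.47 in double-positive cells and between -1.52 and 0.53 in double-negative cells. Of 8 cardiac mesoderm genes 7 had a higher mean. Only 1, Hand2, had all double-positive arrays above all double-negative ones, beside 5.14% of all genes. Array means of the cardiac list lay between 0.44 and 1.27 in double-positive cells and between -0.81 and 0.68 in double-negative cells. Of 5 measured primitive endoderm genes 4, and of 3 measured paraxial mesoderm genes 2, had a lower mean, all with groups that overlapped. Of the lower primitive endoderm genes, Sox17 and Ttr each had 1 probe set that pointed the other way. The remaining primitive endoderm gene, Sox7, which endothelial precursors also express, was at 1.71 (SE 0.393, limma adjusted p = 0.455) with all double-positive arrays above all double-negative ones. No marker gene of these lists passed the adjusted limma test. The part of these cell types in the differences of the guidance genes was not tested.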

How the data were processed

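Total RNA of the 6 samples was labelled with biotin and read on Affymetrix mouse expression arrays, per the labels' protocols. The deposited value table holds ratios: the authors had divided each probe set by its median over the double-negative arrays, which is 1 for 100% of probe sets. How probes were summarised, background corrected or scaled is not given in the sources used here, so no probe set's brightness is known, and precision is limited by having 3 arrays per group. The authors' deposited comparison table lists 22526 probe sets that are not controls, with the fold, p-value and flag score of each. Its fold is the ratio of geometric group means of the deposited values for 100% of probe sets within 1%.

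Gene symbols in the table were brought up to date with RefSeq (its GRCm38.p6 release, for symbols alone): 11501 probe sets matched as given and 8667 by a synonym. After removal of 64 controls, log2 was taken of the deposited ratios as they stand (no pseudocount). The test was limma's moderated test (version 3.58.1, lmFit and eBayes, two-sided, R 4.3.3), run over 45037 probe sets, and over 12264 genes with 1 probe set each, chosen by highest flag score, then plainest and lowest identifier. P-values were adjusted by Benjamini-Hochberg over the whole table, with a threshold of 0.05. Errors of leading probe sets come from the fit by gene and those of other probe sets from the fit by probe set. The fits by probe set and by gene, without block or weights, were tested on simulated data with independent noise between arrays. The other settings were not tested in this way.

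The genes described and all lists were chosen with earlier results of these data known. All probe sets of these genes were named. Of other guidance genes, those with no overlap and a difference of at least 1 in size were named, or else the 2 largest of a list, and the 4 genes nearest to the highest and the lowest gene. Sema4g, Plxna4, Nrp1, Nrp2, Ntng1 and the markers named were chosen after their values were seen. The replicate numbers come from the sample titles. Deviations from group means correlated at 0.558, 0.509 and 0.334 between arrays of the same number, and between -0.492 and 0.274 otherwise (14140 probe sets with a flag score of 6). Crossed arrays of replicates 2 and 3 were at 0.274 and 0.258, near the 0.334 of replicate number 3. The share of replicate 1 in these correlations was not tested. The numbers were taken as pairs, and a fit with the replicate number as a block is given beside counts of guidance genes that it moves by over 1.5 times. Other settings were a pseudocount of 0.25 or 1, quantile normalization, median centring, a trend and robust variance model, array weights, filters on the flag score, means over probe sets and leaving out arrays.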

Additional observations from a re-analysis of the deposited data

How the results depend on the processing

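No guidance gene or probe set passed the adjusted threshold under any of the 19 settings tried. Over all genes the adjusted limma count of 0 became 445 with array weights, 1 and 4 with a pseudocount of 0.25 and 1, 82 in the blocked fit of genes with a flag score of 6 (a combination chosen after the data were seen, which called 5 probe sets) and 0 to 1 when single arrays were left out (1 without double-positive replicate 3). The unadjusted counts over all features ran from 321 to 2402 for genes (630 as reported) and from 504 to 3719 for probe sets (2478 as reported); both were lowest with the filter on a flag score of 6, which tests fewer features, and highest with array weights. Of single arrays left out, double-positive replicate 2 moved the gene count most, to 377. Quantile normalization and the trend and robust variance model each gave 1230 probe sets.

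Of the 152 recomputed differences of the 9 genes, 142 kept their sign, and 6 genes kept it throughout. Robo1 was at -0.29 without double-negative replicate 1 and at -0.10 without double-positive replicate 3. Robo2 was at -0.18 without double-positive replicate 2, and at -0.15 and -0.092 without double-negative replicates 2 and 3. Unc5b was at -0.032 with array weights, at -0.021 without both replicate 1 arrays (with or without the block), at -0.15 when double-positive replicate 2 was left out and at -0.34 when double-negative replicate 1 was. With single arrays left out, Plxna2 ran from 0.16 to 2.77, Slit3 from -1.62 to -0.49, Slit2 from -1.29 to -0.57, Plxnd1 from 0.63 to 1.31, Sema3a from -0.95 to -0.65 and Sema6d from 0.50 to 0.72, and the genes that changed sign reached 0.92 (Robo1), 0.39 (Robo2) and 0.49 (Unc5b).

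The count of the 9 genes with an unadjusted p under 0.05 was 1 as reported. Shares of all genes tested in the same fit stand in brackets. It was 6 with the replicate block (13.9%), 5 with array weights (19.6%), 5 with the block and without both replicate 1 arrays (14.3%), 3 without those arrays and no block (11.3%), 3 after median centring (6.96%), 2 with means over probe sets (5.69%) and 2 in the blocked fit with a flag score of 6 (16.2%). It was 0 with a pseudocount of 1 (5.84%), quantile normalization (3.44%) or the trend and robust variance model (3.85%). Leaving out double-negative replicate 1 gave 3 (6.95%), double-positive replicate 3 gave 2 (4.43%) and double-negative replicate 2 gave 1 (4.66%). The other single arrays gave 0 (3.07% to 5.03%).

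The count of probe sets, also 1, was 4 with the block (7.91% of all probe sets), 3 without both replicate 1 arrays (7.0%), 2 with array weights (8.26%), median centring (5.41%), the comparison table alone (4.87%), the blocked fit with a flag score of 6 (15.1%) or the block without replicate 1 (7.08%), and 0 with a pseudocount of 1 (5.68%) or the trend and robust variance model (2.73%). Single arrays left out gave 0 to 2. Groups did not overlap for 1 gene after quantile normalization. Leaving out single arrays gave 2 to 5 genes (5 without the first array of either fraction). It gave 2 to 8 probe sets (8 without double-negative replicate 1). For these settings no share of all features was counted. Without both replicate 1 arrays it was 8 genes (44.4% of all) and 11 probe sets (38.5%). Fewer arrays leave less room for overlap. Over the whole table the block moved no adjusted count, and the 82 genes and 5 probe sets above were 0 without it. The cause of the other changes was not tested. Without brightness, dim probe sets could only be judged by the flag score.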
